A study of Mus musculus with 27 samples.

Results

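Hox genes of clusters a to d were followed in 27 RNA sequencing libraries from mouse colon. The members were every gene of the deposited table whose symbol is Hoxa, Hoxb, Hoxc or Hoxd followed by a number, which gave 38 of 39971 genes. All mice were BALB/c and labelled wild type. The 6 NC libraries came from colon of mice given saline only. The other groups carried neoplasia induced by AOM/DSS, the carcinogen azoxymethane followed by dextran sulfate sodium, which inflames the colon, and their libraries came from a colon segment that carried tumor. CAC mice were given saline (n = 5). CAC_F mice had FOLFOX injected intraperitoneally, which combines oxaliplatin and fluorouracil with folinic acid, and saline by gavage (n = 5). CAC_FP mice were given FOLFOX with a probiotic complex by gavage (n = 5). CAC_FPL mice were treated as CAC_FP mice and also had loperamide by gavage, which slows transit through opioid receptors (n = 6). Tissue was collected 1 week after the start of chemotherapy. Tissue source and AOM/DSS exposure coincide between NC and the other groups. The labels used here do not record where along the colon each piece was taken, so a shift in the sampled position and a change of Hox RNA at a fixed position cannot be told apart.

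Hox genes encode homeodomain transcription factors that are arranged in clusters, and their order within a cluster mirrors where along the body and the gut each is active. Low paralogue numbers mark anterior levels and high numbers posterior ones, and genes with the same number in different clusters are paralogues. Paralogue group 13 is the most posterior, and in the mouse Hoxa13 and Hoxd13 are needed to form the end of the hindgut. In the adult gut the Hox code is kept in both epithelium and mesenchyme, so that it can report the origin of a piece of intestine.

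The Hoxa genes lay on chromosome 6 from 52132570 to 52237788 (minus strand), the Hoxb genes on chromosome 11 from 96085142 to 96259082, the Hoxc genes on chromosome 15 from 102845192 to 102945278 and the Hoxd genes on chromosome 2 from 74498654 to 74595486, by the coordinates the authors deposited, which name no build. The deposited gene models of Hoxa3 overlap those of Hoxa4, Hoxa5 and Hoxa6, those of Hoxd3 overlap Hoxd4, and those of Hoxc5 overlap Hoxc6, Hoxc8, Hoxc9 and Hoxc10. The library kit kept strand, but whether counting used it is not given, so values of these overlapping members and of antisense genes are uncertain. Of the 38 members 24 passed the filter for testing, an FPKM (fragments scaled by gene length and library depth) of at least 1 in at least 5 libraries. These were 9 of 11 Hoxa, 9 of 10 Hoxb, 6 of 9 Hoxd and 0 of 8 Hoxc genes. The members that did not pass, among them Hoxa4, Hoxb1, Hoxd1, Hoxd12, Hoxd13 and the Hoxc genes, were not tested in the fits with this filter. Hoxc12 had no count in any library, and Hoxc13 was not analysed here. Each library held 56687812 to 79709845 counts, of which the Hox genes made up 0.0268% to 0.0663%.

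Promoters are shown for both extremes of the Hox pattern described next, Hoxa13 and Hoxd13 at the posterior end of their clusters, and Hoxb8 and Hoxd4 among the genes that were lowest where Hoxa13 was high. They are the 300 bases around each gene start from RefSeq on build GRCm38.p6, written along the gene's own strand. By the deposited coordinates only 1 of the 38 members overlapped its RefSeq entry on that build. The cluster spans above and the promoter positions below therefore cannot be set side by side. Hoxa13 lies at chr6:52260831-52261130 on the minus strand, Hoxd13 at chr2:74667975-74668274 on the plus strand, Hoxb8 at chr11:96281655-96281954 on the plus strand and Hoxd4 at chr2:74721728-74722027 on the plus strand. Capitals mark matches on either strand to TTTATNG or TTTACGA, letters found in motifs of the Cdx and posterior Hox proteins.
Hoxa13: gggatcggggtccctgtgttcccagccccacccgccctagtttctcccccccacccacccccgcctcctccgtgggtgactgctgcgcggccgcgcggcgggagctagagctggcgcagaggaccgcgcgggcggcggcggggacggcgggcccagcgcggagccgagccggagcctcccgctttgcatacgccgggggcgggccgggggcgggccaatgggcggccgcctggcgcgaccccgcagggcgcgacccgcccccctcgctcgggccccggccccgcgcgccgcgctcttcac
Hoxd13: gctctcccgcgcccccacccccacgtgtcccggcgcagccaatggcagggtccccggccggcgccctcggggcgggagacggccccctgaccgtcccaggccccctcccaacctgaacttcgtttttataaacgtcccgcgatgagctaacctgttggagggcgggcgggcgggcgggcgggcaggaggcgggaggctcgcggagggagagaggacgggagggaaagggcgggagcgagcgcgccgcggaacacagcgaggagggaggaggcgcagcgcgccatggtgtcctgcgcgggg
Hoxb8: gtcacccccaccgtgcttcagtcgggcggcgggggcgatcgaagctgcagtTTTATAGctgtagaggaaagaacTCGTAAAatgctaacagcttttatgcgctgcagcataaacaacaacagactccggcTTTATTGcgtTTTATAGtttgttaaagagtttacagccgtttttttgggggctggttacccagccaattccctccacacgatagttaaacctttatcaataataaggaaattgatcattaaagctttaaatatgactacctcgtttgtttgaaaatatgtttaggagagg
Hoxd4: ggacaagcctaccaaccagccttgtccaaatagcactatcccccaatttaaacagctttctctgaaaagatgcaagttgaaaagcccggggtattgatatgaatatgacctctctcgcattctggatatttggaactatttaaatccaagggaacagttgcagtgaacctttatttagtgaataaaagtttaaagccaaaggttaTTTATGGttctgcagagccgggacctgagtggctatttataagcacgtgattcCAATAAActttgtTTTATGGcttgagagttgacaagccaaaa
The posterior promoters were rich in G and C (81.0% in Hoxa13 and 74.3% in Hoxd13), against 42.3% in Hoxb8 and 39.7% in Hoxd4. TTTATNG stood 3 times in Hoxb8 and 3 times in Hoxd4, and TTTACGA stood once in Hoxb8, with no overlap between the motifs. Over 24 Hox promoters of 22 genes in that table, 2 held TTTATNG, and 10.9% of all 32851 promoters did. These 2 were the promoters shown for Hoxb8 and Hoxd4, and the remaining Hox promoters lacked it. TTTACGA was in 2 of the 24 and in 0.597% of all promoters. A match is a run of letters, not a bound site.

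Hoxb6 to Hoxb9 and Hoxa7 were the Hox genes with the highest medians. By median FPKM over the 27 libraries the order began with Hoxb9 at 29.15, Hoxb6 at 24.72, Hoxb7 at 9.39, Hoxa7 at 8.42 and Hoxb8 at 5.61. Hoxb3, Hoxa10, Hoxd8, Hoxb5 and Hoxd4 followed, with medians from 4.19 to 5.14 FPKM and ranges that overlapped throughout. Among the posterior genes Hoxa11 had a median of 3.58, Hoxa13 of 1.35 and Hoxd11 of 1.33 FPKM. The medians of Hoxb13 (0.04 FPKM) and Hoxd13 (0.02 FPKM) were near 0. The Hoxc cluster was low throughout, led by Hoxc6 at 0.40 and Hoxc10 at 0.32 FPKM.

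**Figure D1:**
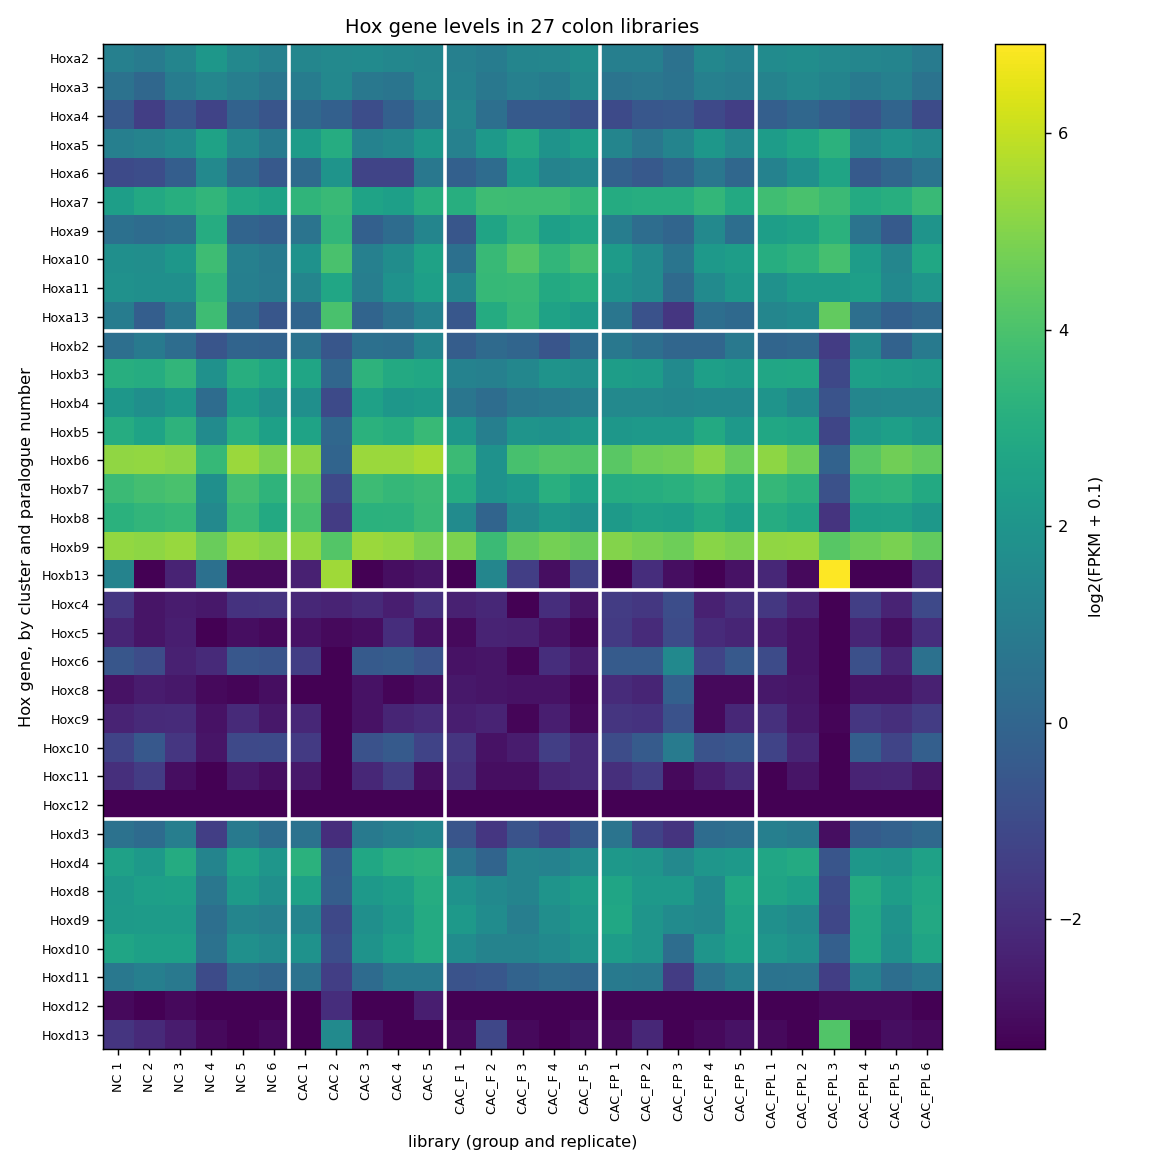
Level of each Hox gene of paralogue groups 2 and above (rows, by cluster and paralogue number) in each of the 27 libraries (columns, by group), as log2(FPKM + 0.1) on the colour scale. CAC 2 and CAC_FPL 3 are the columns with bright Hoxb13 and Hoxd13 and dark Hoxb2 to Hoxb8.

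A pair of libraries stood apart from the rest in their Hox genes. Hoxb13, a group 13 gene of distal colon and prostate, was at 43.51 FPKM in CAC 2 and 119.91 FPKM in CAC_FPL 3, and at 0 to 2.47 FPKM in the other 25 libraries. Hoxd13 was at 2.91 and 17.47 FPKM in them and at no more than 0.35 elsewhere. Hoxa13 was at 15.36 and 21.52 FPKM in them, above the 0.21 to 13.23 FPKM of the others. Its neighbour Hoxa11 did not stand apart, at 6.61 FPKM in CAC 2 and 4.78 FPKM in CAC_FPL 3, with 1.05 to 11.86 FPKM over all libraries. At the other end of the code Hoxb6 was at 0.89 FPKM in CAC 2 and 0.82 FPKM in CAC_FPL 3, against 3.61 to 46.81 FPKM in the other 25. CAC_FPL 3 was the highest library in 5 members (Hoxa5, Hoxa6, Hoxa13, Hoxb13 and Hoxd13) and the lowest in 9 (Hoxb2, Hoxb3, Hoxb5, Hoxb6, Hoxb8, Hoxd3, Hoxd4, Hoxd8 and Hoxd9). The paralogue groups 11 to 13 held 46.0% of summed Hox FPKM in CAC 2 and 66.6% in CAC_FPL 3, and 1.38% to 22.4% in the other libraries.

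Between these extremes lay NC 4 and 4 of the CAC_F libraries. In NC 4 Hoxa13 was at 13.23 FPKM, Hoxb13 at 1.26 FPKM and Hoxb6 at 11.54 FPKM, whereas the other NC libraries had 0.57 to 1.84 FPKM of Hoxa13. Its groups 11 to 13 held 19.6% of Hox FPKM. In CAC_F these groups held 3.80%, 22.4%, 16.5%, 10.8% and 10.6% in replicates 1 to 5. CAC_F 1, the lowest of them in Hoxa13, nonetheless had Hoxb6 at 12.31 FPKM, below 5 of the 6 NC libraries, while its Hoxb9, at 29.15 FPKM, was the highest of CAC_F.

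A mean paralogue number, weighted by FPKM over all Hox genes, gave each library a single value, higher where posterior genes weighed more. Its median was 7.027 in NC, 6.936 in CAC, 7.747 in CAC_F, 7.143 in CAC_FP and 7.217 in CAC_FPL. NC ran from 6.811 to 8.147, CAC from 6.789 to 9.964, CAC_F from 7.281 to 8.388, CAC_FP from 6.955 to 7.344 and CAC_FPL from 7.014 to 11.13. The ranges of all 5 groups overlapped, with CAC_F above the other medians. The same index within single clusters did not always rank libraries alike. CAC_F 1 had the lowest Hoxa index of all libraries, 6.383, but a Hoxd index of 8.261, above every NC library. NC 4 had a Hoxa index of 8.779, while its Hoxd index of 7.220 was below the 7.716 of NC 1 and 7.922 of NC 2. These indices are descriptions over the members and were not tested.

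The sums of posterior Hoxa and of Hoxb genes set the same libraries apart. Hoxa9, Hoxa10, Hoxa11 and Hoxa13 together were at 47.78 FPKM in CAC 2, 50.31 in CAC_FPL 3, 44.88 in NC 4 and 51.04 in CAC_F 3. Hoxb2 to Hoxb8 together were at 4.39 FPKM in CAC 2 and 2.96 in CAC_FPL 3, and at 14.52 to 96.92 FPKM elsewhere. CAC_F had 31.86, 14.52, 31.76, 39.92 and 37.33 FPKM of these Hoxb genes in replicates 1 to 5. CAC without replicate 2 had 85.91, 89.40, 82.95 and 96.92 FPKM, all above the CAC_F values. These sums were formed after the values had been seen.

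**Figure D2:**
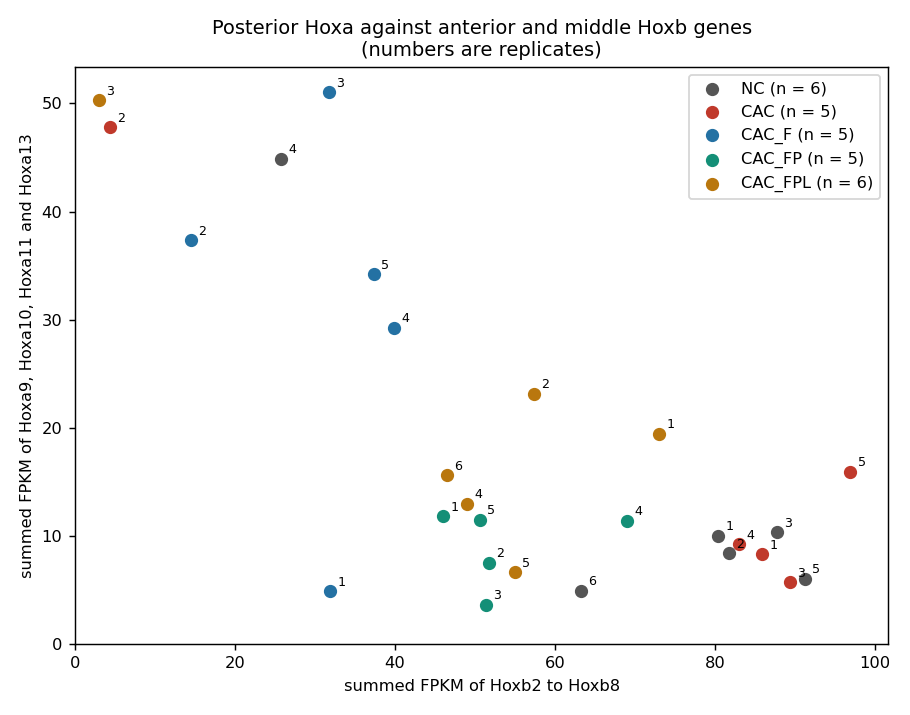
Summed FPKM of Hoxa9, Hoxa10, Hoxa11 and Hoxa13 (vertical axis) against summed FPKM of Hoxb2 to Hoxb8 (horizontal axis), 1 point per library, coloured by group and numbered by replicate. CAC 2 and CAC_FPL 3 lie at the upper left, at 4.39 and 2.96 FPKM of Hoxb2 to Hoxb8, and CAC_F 1 lies alone at the lower left with 4.87 FPKM of the Hoxa genes.

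Within Hoxb2 to Hoxb8 and Hoxd3 to Hoxd11, and within the posterior Hoxa genes, members varied together, while relations between these blocks were mostly negative. After the mean of each group was removed, log2 CPM (counts scaled to library size) of Hoxb6 and Hoxb8 correlated at r = 0.99 and that of Hoxb8 and Hoxd4 at r = 0.96 over 27 libraries. Within the posterior Hoxa genes Hoxa9 and Hoxa10 had r = 0.95, and Hoxa10 and Hoxa13 had r = 0.91. Hoxb8 had r = -0.92 with Hoxb13 and r = -0.71 with Hoxa13. Over all pairs of Hoxa9, Hoxa10, Hoxa11 or Hoxa13 with Hoxb2 to Hoxb8, Hoxd3 or Hoxd4, r ran from -0.78 to 0.01. Without CAC 2 and CAC_FPL 3 the 6 named pairs were at 0.95, 0.86, 0.94, 0.92, -0.74 and -0.47, and the pairs across blocks ran from -0.63 to 0.18. Hoxd10 and Hoxd11 did not follow Hoxa13, despite their high paralogue numbers. Hoxd11 had r = 0.82 with Hoxb3 and r = -0.45 with Hoxa13, and 0.70 and -0.07 without CAC 2 and CAC_FPL 3. Hoxd10 and Hoxd11 were at 0.44 and 0.27 FPKM in CAC 2 and at 0.76 and 0.27 FPKM in CAC_FPL 3. All members of a library share its depth and tissue make-up, and these coefficients are a description.

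Most Hoxc genes were highest in another library. CAC_FP 3 was the highest of all 27 in Hoxc4, Hoxc5, Hoxc6, Hoxc8, Hoxc9 and Hoxc10, with Hoxc6 at 2.82 FPKM and Hoxc10 at 1.81 FPKM. It was also the lowest in Hoxa2, Hoxa11, Hoxa13 and Hoxd11. Hoxc11 was the exception among the detected Hoxc genes, at 0.02 FPKM in CAC_FP 3 and up to 0.25 FPKM elsewhere. The next highest Hoxc6 was 1.31 FPKM in CAC_FPL 6. The apolipoproteins Apoa1 and Apoa4, made by small intestine and liver, were at 53.98 and 13.61 FPKM in CAC_FP 3. Apoa1 was at 16.43 FPKM in CAC_FPL 1 and at most 0.44 FPKM in the others. Their part in the Hoxc values was not tested.

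The comparison of CAC with NC asks whether Hox expression differed between tumor-bearing segments and colon of control mice. None of the 24 genes tested was called, as 0.00663% of all 15080 genes were at an adjusted p below 0.05 (quasi-likelihood test of edgeR, adjusted after Benjamini and Hochberg over all genes tested). No member had an unadjusted p below 0.05 either, where 1164 of all 15080 genes did, and DESeq2 called 0. Hoxa13 was at a lowest, median and highest FPKM of 0.57, 1.345 and 13.23 in the 6 NC libraries and at 0.88, 15.36, 0.89, 1.35 and 2.19 FPKM in CAC 1 to 5. Outside NC 4 and CAC 2 the values of both groups overlapped. The log2 fold change of Hoxa13 was 0.18 ± 0.96 (SE; adjusted p = 0.982, edgeR), and it was -1.33 without CAC 2 and CAC_FPL 3.

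Set against CAC, the CAC_F libraries address the response of neoplastic colon to FOLFOX. Of the 24 members 5 passed the test, all of them lower in CAC_F, which were 3 of 9 Hoxb and 2 of 6 Hoxd genes. These were Hoxb3, Hoxb4, Hoxb8, Hoxd3 and Hoxd4, which is 20.8% of the members tested. Over all genes tested 39.1% were called and 20.2% were called lower, so the share of Hox genes called lower was near that of genes at large. All 9 Hoxb and all 6 Hoxd genes had negative log2 fold changes, and 7 of 9 Hoxa genes had positive ones. The median log2 fold change was -0.63 over the 24 members, -1.25 over Hoxb, -0.70 over Hoxd and 0.52 over Hoxa, against -0.03 over all genes.

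Hoxd4, an anterior gene of its cluster, was at 9.08, 0.67, 6.74, 8.60 and 9.39 FPKM in CAC 1 to 5 and at 1.46, 0.89, 2.35, 2.21 and 2.96 FPKM in CAC_F 1 to 5. All CAC libraries but replicate 2 lay above all CAC_F libraries. The difference was -1.92 ± 0.54 on the log2 scale (SE; adjusted p = 0.00691, edgeR). Hoxd4 was at a lowest, median and highest of 2.37, 5.115 and 7.81 FPKM in NC and of 0.55, 4.93 and 7.43 FPKM in CAC_FPL, and at 4.26, 3.91, 2.72, 4.05 and 4.59 FPKM in CAC_FP 1 to 5. NC and CAC_FPL overlapped with CAC_F through NC 4 and CAC_FPL 3, and CAC_FP overlapped with it through CAC_FP 3.

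Hoxd3, the next gene of that cluster, was at 1.34, 0.15, 1.71, 2.07 and 2.41 FPKM in CAC and at 0.55, 0.21, 0.52, 0.32 and 0.61 FPKM in CAC_F. The difference was -1.90 ± 0.73 on the log2 scale (SE; adjusted p = 0.0407, edgeR). Its gene model overlaps that of Hoxd4, so the 2 calls may share reads. In NC its lowest, median and highest values were 0.27, 1.245 and 2.00 FPKM, in CAC_FPL 0.03, 0.905 and 2.02 FPKM, and in CAC_FP it was at 1.45, 0.32, 0.19, 1.11 and 1.23 FPKM.

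Hoxb8, a middle Hoxb gene, was at 15.09, 0.25, 9.08, 9.33 and 12.13 FPKM in CAC and at 2.95, 0.88, 3.00, 4.25 and 3.65 FPKM in CAC_F. CAC 2 was again the lowest, and the other CAC libraries lay above all of CAC_F. The difference was -1.74 ± 0.68 on the log2 scale (SE; adjusted p = 0.0448, edgeR). Hoxb8 was at a lowest, median and highest of 2.74, 9.805 and 12.27 FPKM in NC and of 0.19, 5.62 and 7.92 FPKM in CAC_FPL. In CAC_FP it was at 4.72, 5.61, 5.41, 7.24 and 5.60 FPKM, above every CAC_F library.

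Hoxb4 was at 3.35, 0.39, 5.70, 4.12 and 4.68 FPKM in CAC and at 1.5, 1.16, 1.60, 1.80 and 2.03 FPKM in CAC_F, a log2 difference of -1.29 ± 0.47 (SE; adjusted p = 0.0326, edgeR). Hoxb3 was at 6.31, 0.94, 9.72, 7.40 and 6.66 FPKM in CAC and at 2.23, 2.12, 2.55, 3.74 and 3.43 FPKM in CAC_F, a log2 difference of -1.25 ± 0.50 (SE; adjusted p = 0.0489, edgeR). Both are anterior Hoxb genes, and for both CAC 2 lay below CAC_F and the other CAC libraries above it. Hoxb4 had a lowest, median and highest of 1.14, 3.87 and 5.02 FPKM in NC and of 0.52, 2.605 and 3.87 FPKM in CAC_FPL, and was at 2.75, 2.68, 2.55, 2.83 and 2.76 FPKM in CAC_FP. Hoxb3 had 3.49, 8.205 and 10.60 FPKM in NC and 0.36, 5.165 and 6.67 FPKM in CAC_FPL, and was at 5.14, 4.77, 2.91, 5.39 and 4.85 FPKM in CAC_FP.

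Posterior Hoxa genes did not pass the test. Hoxa13 was at 0.59, 7.78, 11.05, 5.84 and 4.81 FPKM in CAC_F 1 to 5, so 4 of the 5 lay above all CAC libraries except CAC 2. The difference was 0.52 ± 1.00 on the log2 scale (SE; adjusted p = 0.708, edgeR). The log2 fold change was 0.98 ± 0.45 for Hoxa11 (adjusted p = 0.0892), 0.84 ± 0.61 for Hoxa10 (adjusted p = 0.285) and 0.79 ± 0.77 for Hoxa9 (adjusted p = 0.436, edgeR). Hoxb6, the member with the second highest median, was at 35.06, 0.89, 41.43, 41.47 and 46.81 FPKM in CAC and at 12.31, 3.61, 15.30, 17.18 and 16.81 FPKM in CAC_F, a log2 difference of -1.46 ± 0.67 (SE; adjusted p = 0.0874, edgeR). It was named after its values were seen.

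**Figure D3:**
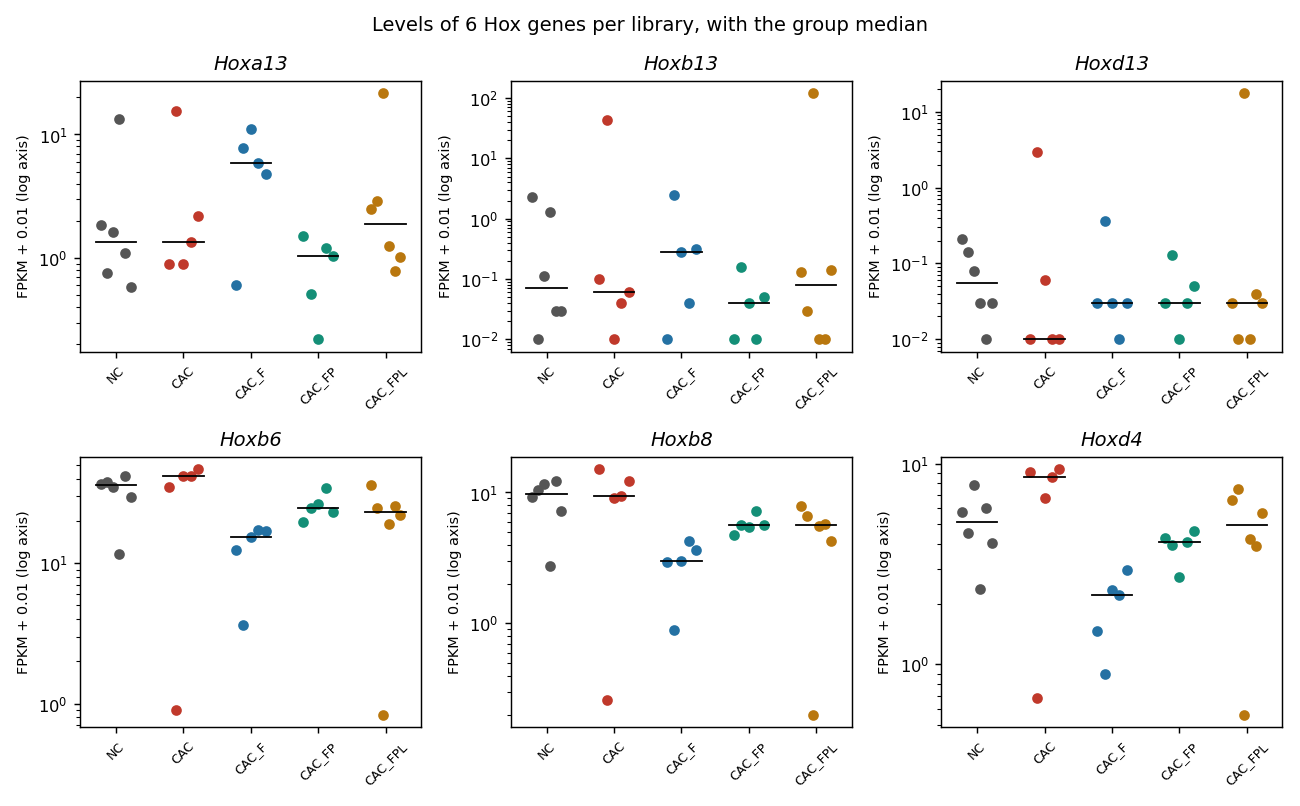
FPKM + 0.01 (log axis) of Hoxa13, Hoxb13, Hoxd13, Hoxb6, Hoxb8 and Hoxd4, 1 point per library by group, with the group median as a bar. CAC 2 and CAC_FPL 3 are the single high points in Hoxb13, at 43.51 and 119.91 FPKM, and the lowest points of their groups in Hoxb6, Hoxb8 and Hoxd4.

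The number of calls turned on single libraries. Leaving out 1 library at a time gave 1 to 9 Hox genes called in CAC_F against CAC. It gave 9 without CAC 2, 7 without NC 4 or without CAC_FPL 3, and 1 without CAC 3, CAC 4, CAC 5, CAC_F 2 or CAC_F 3. It gave 2 without CAC_F 4 or CAC_F 5, 3 without any of NC 1, NC 3, CAC 1, CAC_F 1, CAC_FPL 1, CAC_FPL 4, CAC_FPL 5, CAC_FPL 6 or a CAC_FP library, and 4 or 5 in the rest. Hoxd4 was called in all 27 of these fits. The share of all genes called in each of them is not given here. Without both CAC 2 and CAC_FPL 3, a choice made after their Hox values were seen, 11 of 24 members were called, all lower: Hoxb2 to Hoxb9, Hoxd3, Hoxd4 and Hoxd8. That was 45.8% of the members tested, beside 42.1% of all genes called and 20.6% called lower in the same fit. The log2 fold change of Hoxb6 was then -1.75 ± 0.33 (adjusted p = 0.000311), and that of Hoxa13 was 2.05 ± 0.86 (adjusted p = 0.0589, edgeR). With NC 4 left out as well, 17 of 24 were called, where 41.8% of all genes were, among them Hoxa9, Hoxa10, Hoxa11 and Hoxa13. Libraries picked for these genes narrow the spread of the same genes, so the larger counts are not independent support.

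**Figure D4:**
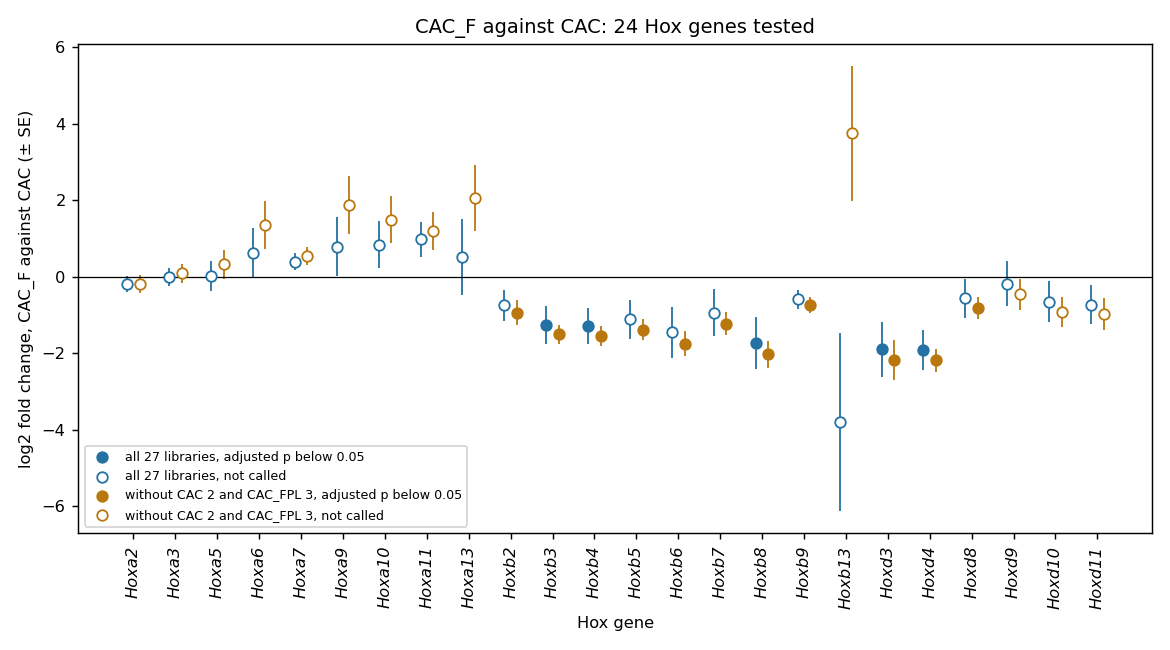
Log2 fold change ± SE of the 24 tested Hox genes in CAC_F against CAC, from all 27 libraries and without CAC 2 and CAC_FPL 3, with called genes as filled points. Hoxb and Hoxd genes lie below 0 in both fits apart from Hoxb13, which moves from -3.81 to 3.75, and their error bars are shorter in the second.

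Smooth muscle RNA was lower in CAC_F as well. Of 16 smooth muscle genes 13 fell in CAC_F against CAC, with a median log2 fold change of -1.41, such as Actg2, an enteric smooth muscle actin (-2.37 ± 0.44, adjusted p = 0.000346, edgeR), and Des, the muscle filament desmin (-1.91 ± 0.39, adjusted p = 0.000717, edgeR). The summed list was at 4748 to 20830 CPM in CAC and at 2504 to 4147 CPM in CAC_F. In bulk tissue fewer cells of a type and less RNA per cell cannot be told apart. With the mean of this list as a covariate, Hoxa11 was the 1 Hox gene called, and Hoxb3, Hoxb4, Hoxb8, Hoxd3 and Hoxd4 were not. How many genes at large were called in that fit is not given here, so the loss cannot be read as particular to Hox genes. As the summed list did not overlap between CAC and CAC_F, the covariate takes up part of the group difference itself. Loss of a call in this fit therefore cannot separate muscle content from treatment. CAC 2 and CAC_FPL 3, at 4748 and 2717 CPM, were the lowest libraries of their groups in this sum. The same list fell by as much in CAC_FP against CAC (13 of 16, median log2 fold change -1.41), and its median was -0.01 in CAC_FP against CAC_F. In CAC_FP against CAC no Hox gene was called. All 9 Hoxb genes had negative log2 fold changes there (median -0.54), as had all 9 Hoxa genes (median -0.58) and 4 of 6 Hoxd genes. NC 4, with low Hoxb genes, was at 9950 CPM, within the 4965 to 11590 CPM of NC. Apart from the covariate fit, the part of smooth muscle in the Hox values was not tested.

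The comparison of CAC_FP with CAC_F asks what the probiotic complex added to FOLFOX. No Hox gene was called, as 0% of all genes were. An unadjusted p below 0.05 was found for 5 of 24 members and for 2401 of all 15080 genes. DESeq2 called 1 member, Hoxa11, and the share of all genes it called is not given here. All 9 Hoxa genes had negative log2 fold changes, with a median of -1.20, while 8 of 9 Hoxb and all 6 Hoxd genes had positive ones. Hoxa13 was at 1.51, 0.50, 0.21, 1.19 and 1.02 FPKM in CAC_FP 1 to 5, below 4 of the 5 CAC_F libraries, and its log2 fold change was -2.73 ± 1.07 (adjusted p = 0.221, edgeR). That of Hoxa11 was -1.49 ± 0.46 (adjusted p = 0.152, edgeR). This comparison and that of CAC_F with CAC share the CAC_F libraries and are not independent.

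The comparison of CAC_FPL with CAC_FP asks what loperamide added. No Hox gene was called, as 0% of all genes were, and DESeq2 called 0. An unadjusted p below 0.05 was found for 5 of 24 members and for 995 of all 15080 genes. All 9 Hoxa genes had positive log2 fold changes, with a median of 0.96. Hoxa13 had a lowest, median and highest of 0.77, 1.86 and 21.52 FPKM in CAC_FPL, and its log2 fold change was 2.54 ± 1.04 (adjusted p = 0.694, edgeR). Without CAC_FPL 3 alone the values of Hoxa13 were 0.77 to 2.88 FPKM, which overlapped those of CAC_FP. The log2 fold change of Hoxb13 was 8.85 ± 3.01 (adjusted p = 0.687, edgeR), and it rested on CAC_FPL 3, since the other libraries of both groups had at most 0.15 FPKM.

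A test of any difference among the 5 groups called Hoxb13 alone of the 24 members (adjusted p = 0.0383, edgeR), where 39.9% of all genes were called. Hoxb13 passed the filter with 5 libraries, which were NC 1 at 2.28, NC 4 at 1.26, CAC 2 at 43.51, CAC_F 2 at 2.47 and CAC_FPL 3 at 119.91 FPKM. The 6 NC libraries had a median of 0.06 FPKM, CAC 1, 3, 4 and 5 were at 0.09, 0.00, 0.03 and 0.05 FPKM, CAC_F 1, 3, 4 and 5 at 0.00, 0.27, 0.03 and 0.31 FPKM, and CAC_FP 1 to 5 at 0.00, 0.15, 0.03, 0.00 and 0.04 FPKM. The 6 CAC_FPL libraries had a median of 0.07 FPKM. So each group but CAC_FP had at least 1 library over 1 FPKM and others near 0, and a fitted fold change of this gene depends on the prior count. The call depended on the method. Median-ratio size factors again called Hoxb13 alone, and edgeR's own filter called it with Hoxc8 and Hoxd13. DESeq2 called Hoxa7, Hoxa11, Hoxb3 and Hoxd4 and not Hoxb13, both limma fits called Hoxa7 alone, and the fit with the smooth muscle covariate called Hoxa11 alone. No member was called with no filter or with the replicate block. The share of all genes called in these alternatives is not given here. In edgeR the adjusted p of Hoxb13 was 0.00424 to 0.064 when 1 library was left out. Without CAC 2 and CAC_FPL 3 the same test called 11 members, where 43.2% of all genes were called. Hoxd13, not tested in the fit reported, had a lowest, median and highest of 0.00, 0.045 and 0.20 FPKM in NC and of 0.00, 0.02 and 17.47 FPKM in CAC_FPL. It was at 0.00, 2.91, 0.05, 0.00 and 0.00 FPKM in CAC, at 0.02, 0.35, 0.02, 0.00 and 0.02 FPKM in CAC_F and at 0.02, 0.12, 0.00, 0.02 and 0.04 FPKM in CAC_FP.

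Of the 6 other pairs of groups, CAC_F against NC called 6 members, where 46.3% of all genes were called, 22.6% higher and 23.7% lower. Hoxa7 rose (log2 fold change 0.51 ± 0.21, adjusted p = 0.0486), and Hoxb3, Hoxb4, Hoxb8, Hoxb9 and Hoxd4 fell, with log2 fold changes from -1.72 for Hoxb8 to -0.72 for Hoxb9 (edgeR). No member was called in CAC_FP against NC, CAC_FPL against NC, CAC_FP against CAC, CAC_FPL against CAC or CAC_FPL against CAC_F, where 26.5%, 7.08%, 18.6%, 1.41% and 12.2% of all genes were called. At an unadjusted p below 0.05 these 5 pairs had 1, 2, 2, 0 and 3 of the 24 members. Of all 15080 genes 5887, 3821, 5211, 2837 and 4665 were below it.

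Several other genes followed the Hox pattern. Most like Hoxa13, by the Pearson correlation of log2 CPM after removal of group means over 27 libraries, were Hoxa11os, the antisense transcript of Hoxa11 (r = 0.978), Evx1, the homeobox gene next to Hoxa13 (0.919), Pdzd7 (0.889), Thbs4 (0.862), Slc8b1 (0.855), C2cd2 (0.851), Dync1li2 (0.813), Gspt2 (0.811), Vps13c (0.801) and Sval1 (0.791). Most like Hoxb13 were Ggh (0.927), Sval1 (0.916), Thbs4 (0.881), Pla2g4f (0.878) and Tcf7l1 (0.877). Among those most like Hoxd13 were Ggh (0.941), Cela1 (0.901), Eno3 (0.897) and Pla2g4f (0.886). Without CAC 2 and CAC_FPL 3 the r of Hoxa11os with Hoxa13 was 0.963 and those of the other genes named with it were 0.628 to 0.879. The genes named with Hoxb13 were then at 0.529 to 0.752 and those named with Hoxd13 at 0.506 to 0.755. Sval1 was at 165.3 and 627.97 FPKM in CAC 2 and CAC_FPL 3 and at 0.36 to 31.93 FPKM elsewhere.

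On the anterior side, looked at after the values were seen, Hoxb8 was followed by Osr2, a zinc finger transcription factor (r = 0.990), Isx, an intestinal homeobox gene (0.960), and Slc51a, a subunit of the basolateral bile acid transporter (0.948). Without CAC 2 and CAC_FPL 3 these were 0.965, 0.885 and 0.873. Osr2 was at 0.12 FPKM in both CAC 2 and CAC_FPL 3 and at 1.34 to 36.26 FPKM in the other 25. Slc51a was at 0.38 and 0.09 FPKM in them, at 1.55 FPKM in CAC_F 2, at 5.62 FPKM in NC 4 and at up to 50.93 FPKM elsewhere. Isx was at 6.04 and 3.31 FPKM in them and at 16.53 to 75.49 FPKM in the others. CAC_F 2 and NC 4 were thus the lowest of the remaining libraries in Osr2, Isx and Slc51a.

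**Figure D5:**
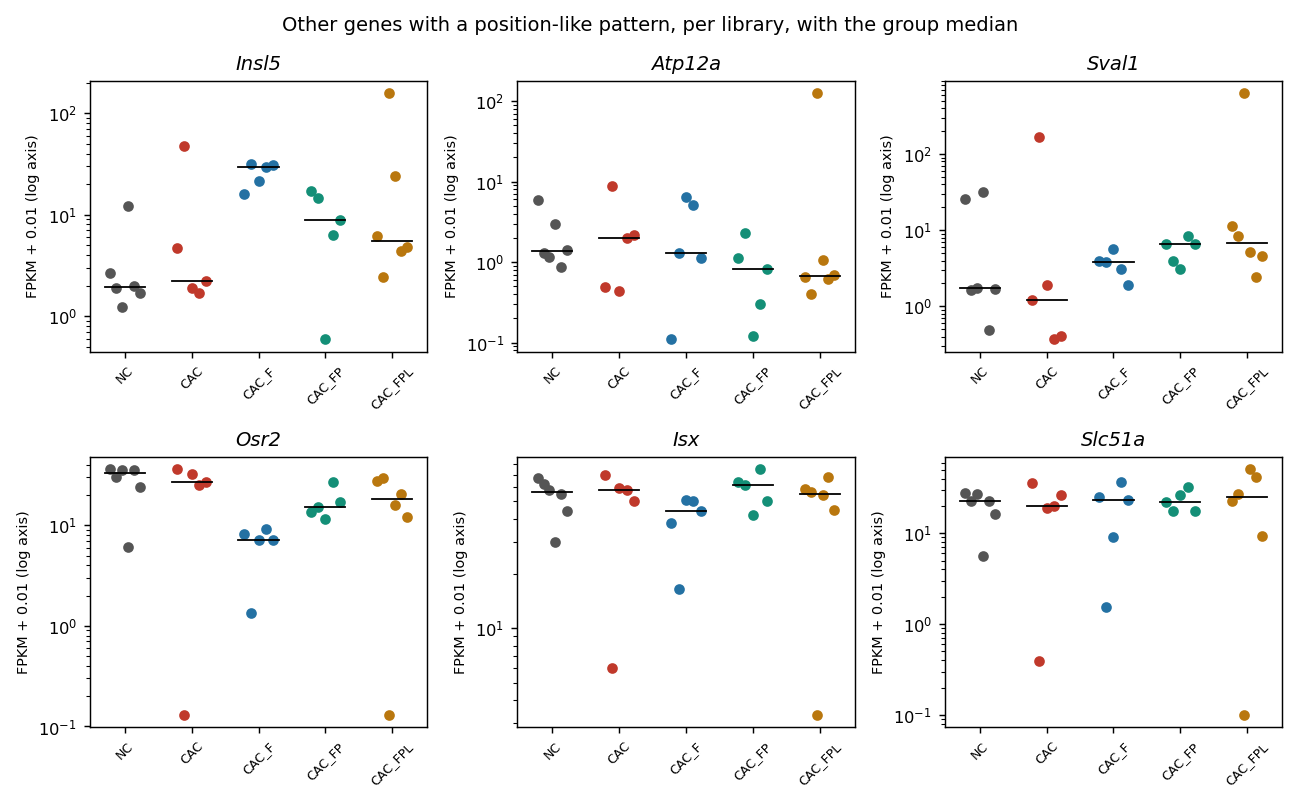
FPKM + 0.01 (log axis) of Insl5, Atp12a, Sval1, Osr2, Isx and Slc51a, 1 point per library by group, with the group median as a bar. CAC 2 and CAC_FPL 3 are the highest points of their groups in the upper row, and the lowest in the lower row, where Osr2 was at 0.12 FPKM in both.

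Markers of the distal colon were compared with the Hox genes in the same libraries. Insl5, a hormone of distal colonic L cells, was at 47.1 FPKM in CAC 2 and 157.1 FPKM in CAC_FPL 3, at 12.12 FPKM in NC 4, at 15.82, 31.43, 21.65, 29.64 and 30.57 FPKM in CAC_F, and at 1.22 to 2.63 FPKM in the other NC libraries. It was also at 17.06, 14.62, 0.58, 6.3 and 8.82 FPKM in CAC_FP and at 23.85 FPKM in CAC_FPL 4, and CAC_F 1, with 15.82 FPKM of it, had 0.59 FPKM of Hoxa13 and 0 FPKM of Hoxb13. Atp12a, the colonic proton-potassium pump, was at 8.82 FPKM in CAC 2 and 124.83 FPKM in CAC_FPL 3 and at most 6.45 FPKM elsewhere. Hottip, a noncoding RNA at the posterior end of the Hoxa cluster, was at 6.68 and 7.69 FPKM in them and at most 1.19 FPKM elsewhere. Prac1, a further distal marker, was not analysed here. The other distal genes were mixed in CAC 2. The sodium channel subunit Scnn1b was at 0.86 FPKM there, the lowest of CAC, and Scnn1a at 12.29 FPKM, within the 9.95 to 19.3 FPKM of the other CAC libraries. Hsd11b2, which inactivates glucocorticoids, was at 62.22 FPKM in CAC 2 and at 24.27 to 60.94 FPKM in the other CAC libraries. It was at 44.46 to 73.43 FPKM in NC. Scnn1g was low, at 0.29 FPKM in CAC 2 and 0 to 0.11 FPKM in the rest of CAC. Cldn8 was at 33.3 FPKM in CAC 2 and at 29.15 FPKM in CAC 1. The distal list summed to 319.4 CPM in CAC 2, the highest of CAC, with 181.7 to 258.1 CPM in the rest of CAC and 188.4 to 299.3 CPM in NC. In CAC_FPL 3 Scnn1a (30.58 FPKM) and Hsd11b2 (223.1 FPKM) were the highest of all 27 libraries.

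Other tissue at the end of the gut was sought by its markers. In CAC 2 and CAC_FPL 3 the squamous markers Trp63, Krt5, Ivl and Sprr1b were at 0.21 FPKM or less, and Krt13, a keratin of squamous mucosa, was at 5.21 and 1.15 FPKM. The summed squamous list was at 15.75 CPM in CAC 2 and at 2.654, 4.104, 2.381 and 3.769 CPM in CAC 1, 3, 4 and 5. It was at 8.123 CPM in CAC_FPL 3, within the 5.831 to 12.15 CPM of CAC_FPL. NC had 2.129 to 4.341 CPM and CAC_F 11.47 to 49.12 CPM. The keratins Krt4 and Krt6a rose in CAC_F against CAC (adjusted p = 4.76e-05 and 0.000812, edgeR). Krt4 was at 0 to 0.03 FPKM in CAC and 1.57 to 10.89 FPKM in CAC_F, and Krt6a at 0 to 0.04 and 0.4 to 3.27 FPKM. Trp63 was at most at 0.08 FPKM in CAC_F. The urothelium and prostate list summed to 862.2 CPM in CAC_FPL 3, the highest of all 27, and to 389.6 CPM in CAC 2, the highest of CAC, with 231.3 to 503.7 CPM in the other 25. Most of it was Tmprss2, a membrane protease that colon also expresses, at 107.62 and 52.21 FPKM in them, while the uroplakins Upk1a, Upk1b, Upk3a and Upk3b were at 1.68 FPKM or less. The skeletal muscle sum was at 9.052 CPM in CAC 2 and 6.459 CPM in CAC_FPL 3, the lowest of their groups, and Myh1 was at 0 in every library. The part of keratin-bearing or urothelial cells in the Hox values was not tested. The label of colon was checked by Car1, a carbonic anhydrase abundant in colonic epithelium, which was at 258.18 to 7399.38 FPKM in every library, and by Gata4, a factor of the proximal small intestine, which was at 1.19 FPKM or less. Other genes on the small intestine list were present: its sum was highest in CAC_FPL 4 and CAC_FPL 5, at 1095 and 1116 CPM, and 79.83 to 660.1 CPM elsewhere. In these libraries Slc10a2, the apical bile acid transporter, was at 110.8 and 121.41 FPKM and Sis, the brush border enzyme sucrase-isomaltase, at 13.84 and 15.84 FPKM. The sum was lowest in CAC_F 2, CAC_FPL 3 and CAC 2, at 79.83, 84.93 and 105.1 CPM.

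Upstream and partner genes of the Hox clusters were counted in CAC_F against CAC, where 39.1% of all genes were called. Among 19 tested regional factors of the gut 3 rose and 5 fell. Cdx1, a caudal homeobox factor of the intestine, fell, with a log2 fold change of -0.81 ± 0.22 (adjusted p = 0.00646), whereas Cdx2 was at -0.45 ± 0.28 (adjusted p = 0.205, edgeR). Aldh1a3, an enzyme that makes retinoic acid, rose by 3.08 ± 0.44 on the log2 scale (adjusted p = 3.69e-05, edgeR), and the nuclear receptor Hnf4g fell by 2.09 ± 0.46 (adjusted p = 0.00116, edgeR). Of 16 Polycomb and Trithorax genes, which hold Hox clusters off or on, 2 rose and 5 fell, among them Ezh1 (-0.60 ± 0.10, adjusted p = 0.000126) and Cbx8 (-1.31 ± 0.285, adjusted p = 0.00112, edgeR), with Bmi1 higher (0.57 ± 0.13, adjusted p = 0.00181, edgeR). Of 7 tested Hox cofactors Pbx2 fell (-0.44 ± 0.12, adjusted p = 0.00605, edgeR). Of 13 neighbours within and beside the clusters 3 rose and 3 fell, including the antisense RNAs Hoxaas3 (-1.06 ± 0.22, adjusted p = 0.000664) and Hoxb5os (-1.37 ± 0.47, adjusted p = 0.0242, edgeR).

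The remaining lists are counted in the same comparison, beside the same 39.1% of all genes. Of the tested members, 1 of 6 distal colon genes fell (Cldn8, a tight junction claudin, -2.53 ± 0.65, adjusted p = 0.00395, edgeR), and 1 of 8 small intestine genes fell (Fabp2, a fatty acid binding protein, -2.28 ± 0.60, adjusted p = 0.0048, edgeR). Of 10 colon epithelium genes 1 fell. Of 11 fibroblast genes 2 rose and 1 fell, of 10 enteric neuron and glia genes 1 rose and 1 fell, of 9 leukocyte genes 2 rose and 2 fell, of 3 skeletal muscle genes 1 rose and 1 fell, of 4 urothelium and prostate genes 1 fell, and of 4 squamous genes 2 rose. No member of these lists was called in CAC against NC, CAC_FP against CAC_F or CAC_FPL against CAC_FP.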

How the data were processed

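Colon RNA of 27 libraries in 5 groups was extracted with Trizol and sequenced as stranded mRNA libraries (dUTP method), per the labels' protocols. Per the submitters' processing notes, HISAT2, FastQC and cutadapt 1.9 were used. The sources used here do not state the counting tool, the annotation or the genome build. The authors deposited raw counts per gene and FPKM with 2 decimals, 1 column of each per library. The labels number the libraries without stating that each came from a separate mouse, so p-values measure the spread between these libraries. All carry the same batch label, and no 2 libraries were identical.

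Genes with FPKM of at least 1 in at least 5 libraries were tested (15080 of 39971, holding at least 99% of counts). Counts were scaled by TMM and fitted with 1 coefficient per group over all libraries in edgeR 4.0.16 (R 4.3.3), with quasi-likelihood F tests, two-sided, Benjamini-Hochberg adjustment over all genes tested and calls at an adjusted p below 0.05. Each SE was derived from the log2 fold change and its F statistic and is approximate near 0 counts. The fit was tested on simulated data. Levels between genes are deposited FPKM, per length, and list sums are CPM over TMM-scaled libraries. Likeness used log2(CPM + 0.5). DESeq2 1.42.0 and limma 3.58.1 were alternatives.

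The members and gene lists were chosen with earlier results of these data known. Values in every library are given for the group 13 genes and for each member called in the 4 main comparisons or in the test of any difference. Lists give up to 4 called members. Likeness takes 10 genes for Hoxa13 and 5 each for Hoxb13 and Hoxd13. Some genes that these rules name are not reported here. Chosen after values were seen were Hoxb6, Hoxa9, Hoxa10 and Hoxa11 as named genes, the summed Hox measures, the genes like Hoxb8, the marker examples, the 4 promoters and the fits without CAC 2, CAC_FPL 3 and NC 4.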

Additional observations from a re-analysis of the deposited data

Results flagged for a closer look

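Of 50 pairs of a group and a measure (9 Hox genes and the mean paralogue number in 5 groups), 16 had a library whose gap to its nearest neighbour took up more of the group's range than Dixon's 95% limit. Chance flags about 1 in 20 groups, and measures of the same library are not independent.

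CAC 2 was high in Hoxa13 at 15.36 FPKM (others 0.88 to 2.19), in Hoxb13 at 43.51 FPKM (others 0 to 0.09), in Hoxd13 at 2.91 FPKM (others 0 to 0.05) and in the mean paralogue number at 9.9639 (others 6.7892 to 6.937), and low in Hoxb6 at 0.89 FPKM (others 35.06 to 46.81). CAC_FPL 3 was high in Hoxa13 at 21.52 FPKM (others 0.77 to 2.88), in Hoxb13 at 119.91 FPKM (others 0 to 0.13), in Hoxd13 at 17.47 FPKM (others 0 to 0.03) and in the mean paralogue number at 11.135 (others 7.0138 to 7.3023), and low in Hoxb3 at 0.36 FPKM (others 4.36 to 6.67). NC 4 was high in Hoxa13 at 13.23 FPKM (others 0.57 to 1.84) and in the mean paralogue number at 8.1472 (others 6.8112 to 7.1448).

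CAC_F 2 was high in Hoxb13 at 2.47 FPKM (others 0 to 0.31) and in Hoxd13 at 0.35 FPKM (others 0 to 0.02). CAC_FP 2 was high in Hoxb13 at 0.15 FPKM (others 0 to 0.04), a level near 0. CAC_FP 3 was low in Hoxb3 at 2.91 FPKM (others 4.77 to 5.39).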

How the results depend on the processing

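Across the alternatives no Hox gene was called in CAC against NC or in CAC_FPL against CAC_FP, and in CAC_FP against CAC_F 1 was called by DESeq2 (Hoxa11) and 0 otherwise, leaving out each library included. In CAC_F against CAC, 5 members were called in the fit reported. This became 1 with no filter, 2 with edgeR's own filter, 1 with limma on log2(FPKM + 1), 0 with limma on log2(FPKM + 0.1), 2 with a fit of the compared groups alone, 1 with the smooth muscle covariate and 1 with the replicate block, and it was 4 with median-ratio size factors and 6 with DESeq2. It was 1 to 9 with 1 library left out, 11 without CAC 2 and CAC_FPL 3, and 17 without NC 4 as well. For any group difference 1 member was called. This became 0 with no filter, 3 with edgeR's own filter, 4 with DESeq2, 0 with the replicate block, 0 to 7 with 1 library left out, 11 without CAC 2 and CAC_FPL 3, and 16 without NC 4 as well. No filter and edgeR's own filter tested 37 and 35 members. For most of these fits the share of all genes called is not given here. The counts therefore do not show whether Hox calls changed more than those of genes at large. Other causes of these changes were not tested.

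Directions turned in members that were not called. In CAC against NC, Hoxa13 was -0.113 with the smooth muscle covariate, -1.33 without CAC 2 and CAC_FPL 3, and -1.33 to 1.68 with 1 library left out. Hoxb13 was -0.877 with the covariate, -2.11 with the replicate block, -3.95 without CAC 2 and CAC_FPL 3, -3.6 without NC 4 as well, and -3.94 to 4.69 with 1 library left out. Hoxb4, at 0.00454, was -0.0252 with no filter, -0.00293 with edgeR's own filter, -0.0867 and -0.232 with limma at pseudocounts 1 and 0.1, -0.0766 with the covariate, -0.0371 with the block, and -0.229 to 0.302 with 1 library left out. Hoxb8, at 0.0188, was -0.00879, -0.248, -0.535, -0.0221 and -0.196 with no filter, both limma fits, the covariate and the block, and -0.209 to 0.337 with 1 library left out. Hoxd3 was -0.0093 with the covariate. In CAC_F against CAC, Hoxa13 was -0.0962 with the covariate, and Hoxb13 was 3.75 and 3.72 without CAC 2 and CAC_FPL 3 and without NC 4 as well, and -5.77 to 3.74 with 1 library left out. In CAC_FPL against CAC_FP, Hoxb3 was -0.139, -0.318 and -0.231 with both limma fits and the covariate, and -0.0846 to 0.289 with 1 library left out. Hoxb4 was 0.0874 and 0.0983, and Hoxb8 0.0801 and 0.0916, without the 2 and the 3 libraries, and they were -0.297 to 0.0874 and -0.352 to 0.0801 with 1 library left out. Hoxd3 was -0.078 with the covariate, and Hoxd4 was -0.0392 with limma at a pseudocount of 0.1 and -0.0236 with the covariate.

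The groups share replicate numbers, but not every same-numbered pair had a correlation over 0.1 in any main comparison, and the numbers were not taken to pair the samples: same-numbered libraries of CAC_F and CAC had correlations of their deviations from the group means from 0.0162 to 0.29, 4 of 5 of them over 0.1, and 3 of 5 correlated best with their own number. With the replicate block the 1 call was Hoxd4.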
